A study of Homo sapiens with 8 samples.

Results

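Human chromosome 19 held 3321 of the 129536 peaks of open chromatin in the deposited count table. All peaks that the table places on this chromosome were taken, which is 2.58% of the peaks on the main chromosomes. The chromosome was chosen by its median log2 fold change in the same comparison of sorbitol with vehicle that is described here, so its counts and medians are a description and support nothing by themselves.

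The cells were HEK293, a human embryonic kidney line, with the genotype label eGFP-YAP, a green fluorescent protein fused to the Hippo pathway coactivator YAP. The sample titles name HEK293 alone and the library names carry the letters wt, so the line is called by its genotype label with that difference stated. There were 4 vehicle libraries and 4 libraries from cells that had spent 1 h in medium with 0.2 M of added sorbitol, a sugar alcohol that shrinks cells by osmosis, and the series description states that cells were serum-starved before the exposure. The vehicle libraries are labelled 0 h and the sorbitol libraries 1 h, so by the labels time and sorbitol cannot be told apart. Each library was made from 50000 cells by Omni-ATAC-seq, a method that cuts and tags accessible DNA of isolated nuclei with a transposase, and nothing in the labels says whether the 4 libraries of a group came from separate cultures, so p-values measure only the spread between these libraries, which may be technical.

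Chromosome 19 is among the smallest human chromosomes and the one with the densest packing of genes. It is known for tandem clusters of KRAB zinc finger genes, which encode DNA-binding repressors that recruit TRIM28 to silence transposable elements. Between these clusters lie housekeeping genes for ribosomal proteins, splicing and transcription, and families used mainly outside the kidney, such as killer cell receptors, pregnancy-specific glycoproteins and kallikreins.

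Peaks were divided by position against RefSeq genes. A gene-end peak lay within 1 kb of either end of a gene, an inside-gene peak overlapped a gene away from its ends, and the rest were intergenic. Chromosome 19 had 1373 gene-end, 1324 inside-gene and 624 intergenic peaks, between 200 and 2726 bp wide with a median of 487 bp. It has 1410 protein-coding genes in that table, and 268 genes belong to the zinc finger families by symbol.

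Promoters of the genes that carry the contrasts below are printed here, each from 250 bases before to 50 after a gene start, from the RefSeq promoter table of GRCh38.p14, 5′ to 3′ on the strand of the gene. Capitals mark a match to the ETS core CCGGAAG or its reverse complement, the motif whose share differed most with the change of the peak, as given further on. The zinc finger gene ZNF724 (chr19:23250345-23250644, minus strand) had the peak with the smallest p-value on the chromosome. The splicing factor gene U2AF2 (chr19:55654785-55655084, plus strand), the lipase gene PNPLA6 (chr19:7535467-7535766, plus strand) and the ribosomal protein gene RPL28 (chr19:55385682-55385981, plus strand) lay at other peaks that fell. ZNF536 (chr19:30225342-30225641, plus strand) is the gene of the 1 Mb window that did not follow the fall and was added after its values were seen. FCGRT (chr19:49512411-49512710, plus strand), the neonatal Fc receptor gene, lay at the gene-end peak that rose with the smallest p-value.
ZNF724: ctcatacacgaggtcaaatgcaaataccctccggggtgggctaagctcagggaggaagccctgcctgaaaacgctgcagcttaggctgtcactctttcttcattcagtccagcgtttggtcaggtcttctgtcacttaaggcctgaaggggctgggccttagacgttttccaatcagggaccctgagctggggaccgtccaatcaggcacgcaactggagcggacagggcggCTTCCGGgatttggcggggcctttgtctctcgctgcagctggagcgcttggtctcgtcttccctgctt
U2AF2: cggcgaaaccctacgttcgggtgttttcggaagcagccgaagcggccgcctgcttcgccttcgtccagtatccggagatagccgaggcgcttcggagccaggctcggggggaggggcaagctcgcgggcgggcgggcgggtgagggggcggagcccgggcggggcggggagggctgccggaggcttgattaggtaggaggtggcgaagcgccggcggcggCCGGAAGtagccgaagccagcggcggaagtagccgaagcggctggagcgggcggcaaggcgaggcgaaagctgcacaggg
PNPLA6: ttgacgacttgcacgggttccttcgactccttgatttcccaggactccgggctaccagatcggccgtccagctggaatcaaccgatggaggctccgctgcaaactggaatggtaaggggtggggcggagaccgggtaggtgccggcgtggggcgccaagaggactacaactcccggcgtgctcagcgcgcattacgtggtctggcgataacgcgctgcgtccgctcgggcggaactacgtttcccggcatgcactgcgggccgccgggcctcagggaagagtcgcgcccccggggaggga
RPL28: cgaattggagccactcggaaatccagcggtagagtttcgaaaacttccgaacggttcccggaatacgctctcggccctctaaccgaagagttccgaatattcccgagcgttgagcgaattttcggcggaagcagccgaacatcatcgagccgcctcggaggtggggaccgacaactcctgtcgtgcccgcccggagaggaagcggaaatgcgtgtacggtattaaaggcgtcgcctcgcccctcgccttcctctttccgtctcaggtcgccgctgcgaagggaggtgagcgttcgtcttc
ZNF536: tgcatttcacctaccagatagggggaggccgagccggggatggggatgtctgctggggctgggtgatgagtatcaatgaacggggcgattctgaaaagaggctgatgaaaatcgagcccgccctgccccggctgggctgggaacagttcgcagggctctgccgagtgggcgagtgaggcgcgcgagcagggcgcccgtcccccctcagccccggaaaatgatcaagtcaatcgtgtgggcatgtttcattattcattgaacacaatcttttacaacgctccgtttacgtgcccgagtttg
FCGRT: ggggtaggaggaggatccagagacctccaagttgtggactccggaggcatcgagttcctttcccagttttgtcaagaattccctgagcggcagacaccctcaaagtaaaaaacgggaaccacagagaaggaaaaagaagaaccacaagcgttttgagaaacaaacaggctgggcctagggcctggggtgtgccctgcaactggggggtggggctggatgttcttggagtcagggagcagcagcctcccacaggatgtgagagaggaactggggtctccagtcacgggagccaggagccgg

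Vehicle libraries held between 14757015 and 19831471 counts in peaks and sorbitol libraries between 11522266 and 14355727. Every sorbitol library was thus smaller than every vehicle library, so library size and treatment cannot be told apart. Of 8 genes chosen as marks of HEK293 cells, 7 had a gene-end peak, with 9.07 to 125 CPM (counts scaled to the total of the library) at the strongest one, and PAX2 had none. Of 10 genes of other cell types only PTPRC had one, at 1.16 CPM. Vehicle replicate 4 and sorbitol replicate 4 had the extreme values of an index of peaks on unplaced contigs, 0.35 and -0.32 (log2), while the ranges of the groups overlapped. Replicates 1 and 2 share a first number in their library names, as do replicates 3 and 4, and what that number means is not given in the labels.

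After sorbitol, chromosome 19 took up a smaller share of every library. In the vehicle libraries 3.55, 3.60, 3.29 and 3.27% of the counts lay in its peaks, replicates 1 to 4. In the sorbitol libraries the share was 2.68, 2.64, 2.53 and 2.51%. The means were 3.43% ± 0.174 and 2.59% ± 0.0811 (SD, n = 4 each), so that the sorbitol share was 0.756 of the vehicle share and the groups did not overlap.

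Replicates 1 and 2 lay above replicates 3 and 4 in both groups. Within the libraries of the first number the share went from 3.58% to 2.66%, and within those of the second from 3.28% to 2.52%. The other gene-rich chromosomes used for comparison had smaller relative losses. Their sorbitol shares were 0.818 of the vehicle share on chromosome 17, 0.835 on chromosome 22 and 0.861 on chromosome 16. Counts are relative to each library, so fewer accessible sites on chromosome 19 and more signal elsewhere cannot be told apart, nor can fewer open cells and less opening per cell.

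The 3 classes of peak all lost share. Gene-end peaks of chromosome 19 held 2.31, 2.34, 2.13 and 2.10% of the vehicle libraries and 1.66, 1.66, 1.57 and 1.59% of the sorbitol libraries. Inside-gene peaks went from 0.876% ± 0.0383 to 0.70% ± 0.0277 and intergenic peaks from 0.330% ± 0.0133 to 0.271% ± 0.0109 (SD, n = 4). In each class every sorbitol library lay below every vehicle library. Gene-end peaks lost the most and went from 64.8% ± 0.354 of the chromosome's counts in vehicle to 62.5% ± 0.648 after sorbitol. Here and below, ± beside a share or CPM is the SD over 4 libraries.

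**Figure D1:**
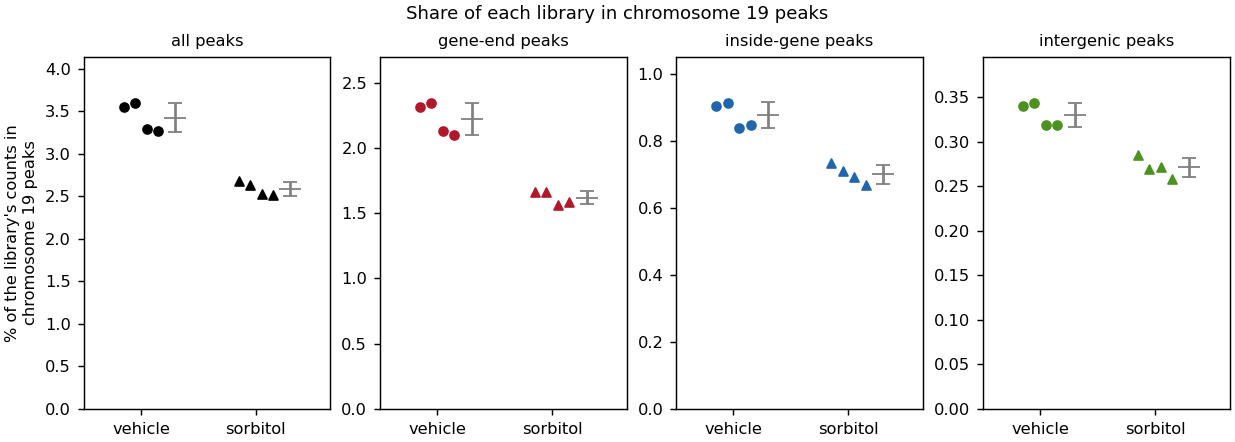
Percent of each library's counts that lay in chromosome 19 peaks, for all peaks and for each class, in 4 vehicle (circles) and 4 sorbitol (triangles) libraries. Grey bars show mean and SD; all sorbitol libraries lie below all vehicle libraries in each panel, and the means over all peaks are 3.43% and 2.59%.

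Of the 3321 peaks, 3318 passed the filter on low counts. The other 3 lay inside TMPRSS9, VAV1 and the ZNF765-ZNF761 readthrough gene, and reached at most 2.53 CPM in any library. With the edgeR quasi-likelihood test and Benjamini-Hochberg adjustment over all 129487 tested peaks of the genome, 1626 peaks of chromosome 19 fell and 113 rose at an adjusted p under 0.05. Over all chromosomes 29.1% of peaks were called, 13.1% lower and 16% higher, against 49.0% lower and 3.41% higher here. The median log2 fold change was -0.45, and 84.3% of tested peaks were below 0. With TMM factors from peaks on unplaced contigs 874 fell and 35 rose although the median was as large, -0.50, and with TMM factors from chromosome 19 itself 478 fell and 544 rose.

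A change of at least 2-fold was called at 197 lower and 24 higher peaks, while the genome as a whole had 0.881% of peaks in the first group and 5.27% in the second. The 4 libraries of one group lay wholly beyond those of the other in CPM at 1397 peaks, 1229 of them lower after sorbitol, and 26.8% of all peaks of the genome did so. Falling peaks were stronger than rising ones, with a median of 9.76 CPM against 3.02. Rising peaks were scattered over 37 windows of 1 Mb.

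Gene-end peaks had the lowest values and intergenic peaks the highest. Among 1373 tested gene-end peaks 879 fell and 41 rose, with a median log2 fold change of -0.52. Among 1321 inside-gene peaks 545 fell and 54 rose, with a median of -0.42. Among 624 intergenic peaks 202 fell and 18 rose, with a median of -0.37. The same classes on all other chromosomes had medians of -0.15, 0.077 and 0.062, with 31%, 7.91% and 7.67% of peaks lower and 9.08%, 19.2% and 16.2% higher. On chromosome 17 the medians were -0.39, -0.28 and -0.24 (54.2%, 24.5% and 23% lower). They were -0.35, -0.25 and -0.21 on chromosome 22 (47%, 26.7% and 23.2% lower) and -0.36, -0.22 and -0.21 on chromosome 16 (53.1%, 21.4% and 17.8% lower). A fall in all 3 classes is thus not particular to chromosome 19, where the medians were lower still. With a loess offset, which scales by peak strength, the 3 medians on chromosome 19 were -0.44, -0.42 and -0.42, so the classes then hardly differed.

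Within gene-end peaks, the number of genes that shared the peak went with the size of the change. Those that touched the ends of 2 or more protein-coding genes fell at 189 of 246, with a median of -0.58. Those with any protein-coding gene end had a median of -0.52, and those with none, at noncoding genes and pseudogenes, -0.48. On the other chromosomes the same 3 sets had medians of -0.31 (56.5% lower), -0.19 and -0.066, so this order is not particular to chromosome 19. The sets here also differed in strength, with medians of 15.5, 10.9 and 5.40 CPM, and were not compared at like strength. The 910 gene-end peaks within 1 kb of a listed start had a median of -0.54 and the 463 without one -0.47.

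Strong peaks have smaller counting error and are called more often, so peaks were also compared within 5 equal bins of strength, set over all peaks of the genome by mean log CPM. In all 15 combinations of class and bin, the chromosome 19 median lay below that of the other chromosomes. The differences ranged from -0.62 to -0.25 and averaged -0.42. The strongest bin has no upper bound, and its gene-end peaks were not of like strength. The 757 on chromosome 19 had a median of 18.4 CPM and those elsewhere 27.6 CPM. On chromosome 19 the medians ran from -0.58 to -0.26. On the other chromosomes only 5 of the 15 were below 0.

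**Figure D2:**
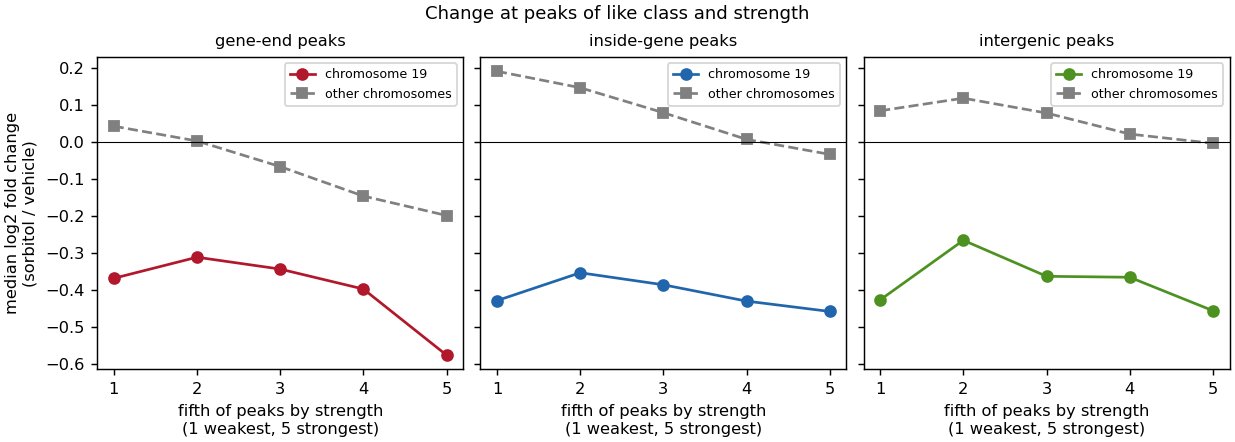
Median log2 fold change of peaks of each class in 5 bins of genome-wide peak strength, on chromosome 19 (coloured circles) and on all other chromosomes (grey squares). Chromosome 19 lies below the grey line at every point, by 0.25 to 0.62, and its lowest point is the bin of the strongest gene-end peaks at -0.58. In that bin the median strength was 18.4 CPM on chromosome 19 and 27.6 CPM on the others.

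Of the 59 windows of 1 Mb, counted from the start of the chromosome, 57 held peaks and 50 held at least 10 tested ones. Medians were below 0 in 49 of these 50 and ran from -1.08 to 0.0021, with a middle value of -0.44. On the other chromosomes 2543 windows had 10 or more tested peaks, and their middle value was -0.0059, with 49.2% at or above 0. Counts summed over each window and tested by edgeR over all 2923 windows of the genome put 54 of the 57 lower and 0 higher, where 40.3% of windows genome-wide were lower and 22% higher. At an unadjusted p under 0.05, edgeR also put 0 of the 57 higher, and with contig factors 7 were lower. The 3 windows with no call were 31, with 44 peaks, and 29 and 32, with 2 and 9.

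No peaks lay between 24.9 and 27.6 Mb, a gap of 2.75 Mb around the centromere. The 1582 tested peaks before the gap and the 1736 after it had the same median, -0.45, and 47.9% and 50% of them fell.

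The order of the classes over the whole chromosome, gene-end lowest and intergenic highest, held in 14 of the 43 windows with at least 5 peaks of each class. With at least 5 peaks of a class required, 50 of 51 gene-end medians, 48 of 48 inside-gene medians and 42 of 43 intergenic medians were below 0. The exceptions were both in window 31. The gene-end median was lower than the inside-gene median in 33 of 47 windows and lower than the intergenic median in 30 of 43, with middle differences of -0.061 and -0.096.

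**Figure D3:**
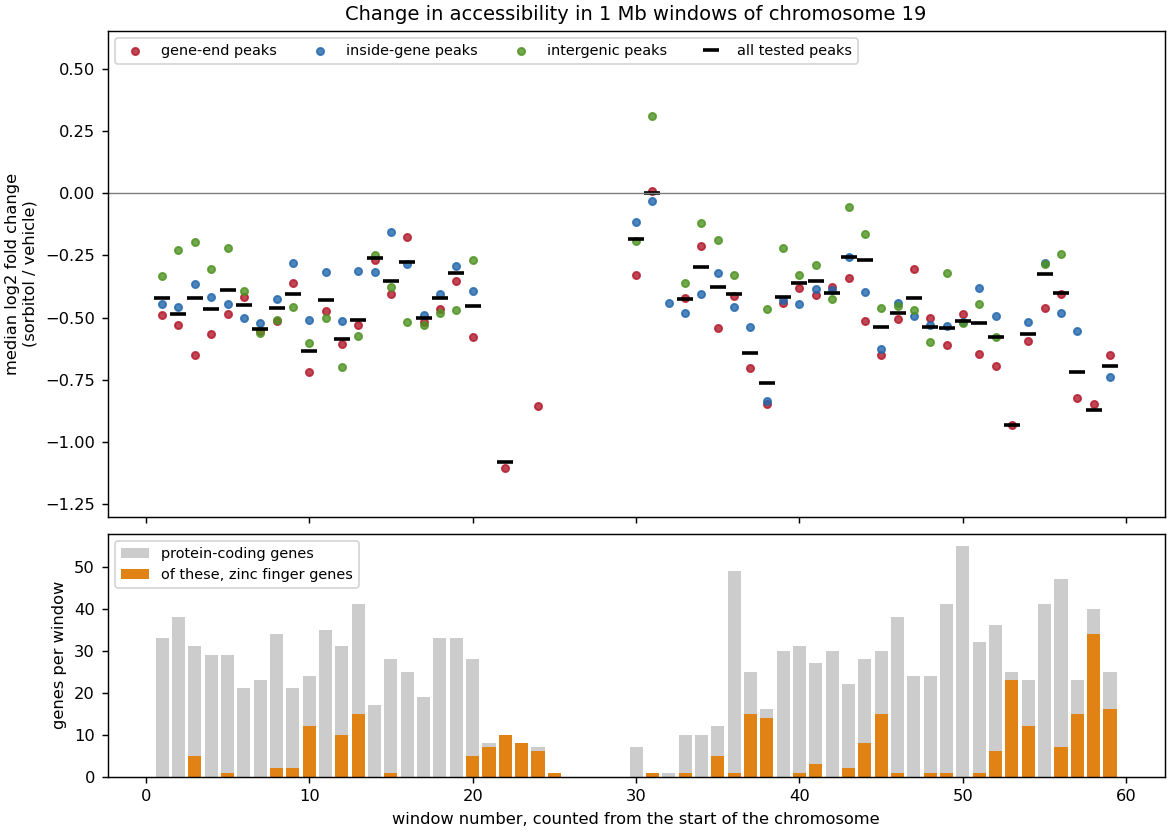
Upper panel, median log2 fold change in each 1 Mb window of chromosome 19, for all tested peaks (black bars, windows with at least 10) and for each class (points, at least 5 peaks). Lower panel, protein-coding genes and zinc finger genes per window; window 31 alone has a black bar at 0, and windows 22, 53 and 58, where zinc finger genes are many, have the lowest.

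The lowest windows were zinc finger clusters. Window 22 (21 to 22 Mb), in which all 10 protein-coding genes are zinc finger genes, had a median of -1.08 over 10 peaks, 9 of which fell. Its summed signal was 227, 226, 233 and 202 CPM in the vehicle libraries and 122, 121, 119 and 122 CPM in the sorbitol libraries. The means were 222 ± 13.7 and 121 ± 1.35 CPM (SD, n = 4), with no overlap and a log2 fold change of -0.96 ± 0.05 (SE; edgeR adjusted p = 1.77e-10).

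Window 53 (52 to 53 Mb) had a median of -0.93, window 58 (57 to 58 Mb) -0.87, window 38 (37 to 38 Mb) -0.76 and window 57 (56 to 57 Mb) -0.72. Of their protein-coding genes 23 of 25, 34 of 40, 14 of 16 and 15 of 23 are zinc finger genes. The summed signal of window 58 went from 477 ± 22.6 to 279 ± 7.03 CPM, a log2 fold change of -0.86 ± 0.04 (SE; edgeR adjusted p = 7.62e-11). In each of these windows the 4 sorbitol libraries lay below the 4 vehicle libraries.

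At the other end, window 30 (29 to 30 Mb) had a median of -0.19, window 43 (42 to 43 Mb) and window 14 (13 to 14 Mb) -0.26 and window 44 (43 to 44 Mb) -0.27. Their summed signals still fell. That of window 30 was 411, 391, 399 and 413 CPM in vehicle and 367, 371, 372 and 368 CPM after sorbitol, a log2 fold change of -0.21 ± 0.03 (SE; edgeR adjusted p = 1.06e-05). The groups did not overlap, although the change was the smallest called on the chromosome.

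Across the 50 windows the median change had a rank correlation of -0.11 with the number of protein-coding genes and of -0.54 with the number of zinc finger genes. It was -0.64 with the share of gene-end peaks and -0.53 with the median strength of the peaks. These are descriptions over windows that share their libraries, and gene ends, strength and zinc finger genes occur together. The 12 windows with 10 or more zinc finger genes had medians of -1.08 to -0.51 (middle value -0.67), and the 18 with none had -0.54 to -0.19 (middle value -0.42).

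Chromosome 19 windows had lower middle values than windows of like gene number elsewhere in each of 5 gene-number ranges. With 20 to 29 protein-coding genes the middle median was -0.45 in 19 windows here and -0.24 in 109 windows on other chromosomes. With 30 or more it was -0.45 in 22 windows and -0.33 in 66. With 10 to 19 it was -0.43 in 7 windows and -0.13 in 419. The 2 sparser ranges each had 1 window here. Window 30, with 5 to 9 genes, had -0.19, against -0.012 in 774 windows, and window 31, with 0 to 4, had 0.0021, against 0.085 in 1175 windows, of which 65.7% were at or above 0.

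Window 31 (30 to 31 Mb) was the single window of at least 10 tested peaks with a median at or above 0. Window 29 also lay above 0, with a median of 0.057, but over 2 tested peaks, neither of them called. Window 31 holds 1 protein-coding gene start region, that of ZNF536, a zinc finger repressor of neuronal differentiation genes. It also holds the last part of URI1, which encodes a prefoldin-like chaperone. Its 44 tested peaks had a median log2 fold change of 0.0021. Of these, 4 fell, 4 rose and 36 were not called. The 7 gene-end peaks had a median of 0.0084, the 22 inside-gene peaks -0.033 and the 15 intergenic peaks 0.31.

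The summed signal of window 31 was 152, 155, 148 and 141 CPM in the vehicle libraries and 158, 166, 170 and 157 CPM in the sorbitol libraries. The sorbitol libraries were all above the vehicle libraries on this scale, with means of 149 ± 5.84 and 163 ± 6.04 CPM (SD, n = 4). With libraries scaled by TMM (the trimmed mean of M-values), the log2 fold change was 0.044 ± 0.05 (SE; edgeR adjusted p = 0.421), which is not a call. Within the first number of the library names the ratio of sorbitol to vehicle was 1.06, and within the second 1.13.

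How window 31 stands against 0 depends on the scaling, whereas its place among the windows did not in the fits run. Among windows with at least 10 tested peaks it was the highest in all 20 alternative fits of the peaks, 0.41 to 0.54 (log2) above the median of the chromosome. Its own median was between -0.056 and 0.18 in those fits, leaving aside scaling on chromosome 19 itself, and in 8 of them it was below 0. Without both replicates numbered 4 it was -0.015.

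**Figure D4:**
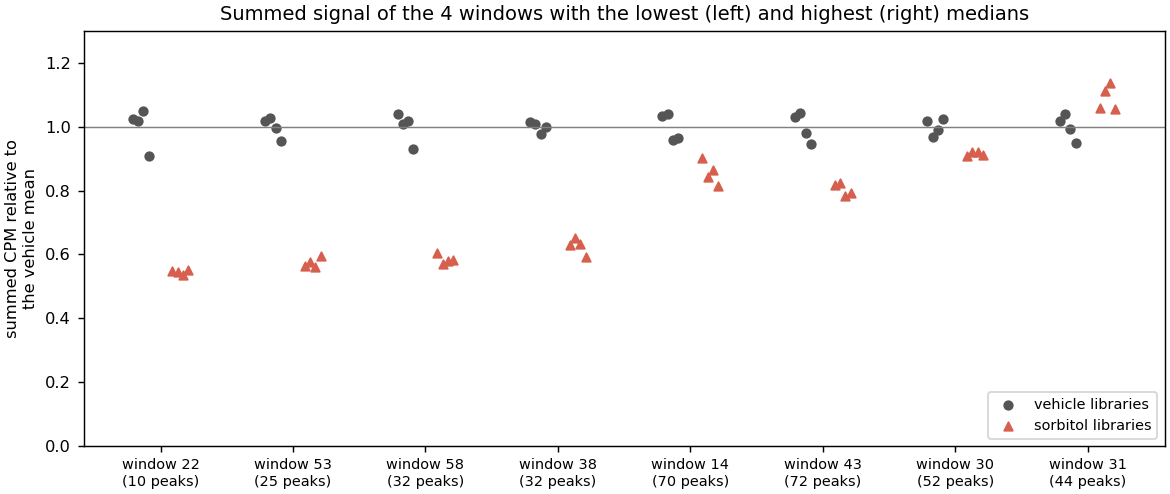
Summed CPM of each library relative to the vehicle mean, in the 4 windows with the lowest and the 4 with the highest medians (circles vehicle, triangles sorbitol, 4 libraries each). Sorbitol libraries of window 22 lie near 0.55, those of window 30 near 0.92, and in window 31 all 4 lie above the vehicle libraries.

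Inside window 31 the values were not uniform. The part before 30.5 Mb had a median of 0.031 over 28 peaks, and the part after it -0.24 over 16. The strongest peak, inside URI1 (chr19:30003784-30004860), had 15.5, 15.1, 14.1 and 11.7 CPM in vehicle and 15.8, 21.0, 19.7 and 17.7 CPM after sorbitol. The groups did not overlap, although the lowest sorbitol library was close to the highest vehicle library, and the log2 fold change was 0.31 ± 0.11 (SE; edgeR adjusted p = 0.0256). The call was lost without vehicle replicate 3 or 4 or sorbitol replicate 2 or 3 (adjusted p 0.0544 to 0.131), without both replicates 4 (0.114), with the DESeq2 Wald test (0.0705), with contig factors (0.562) and at the stricter threshold of 0.01.

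The peak of this window with the smallest p-value was intergenic and 66.0 kb from the nearest gene, LOC107985271 (chr19:30152994-30153193). It had 0.460, 1.32, 0.656 and 0.813 CPM in vehicle and 2.26, 1.91, 2.25 and 1.602 CPM after sorbitol, without overlap, and a log2 fold change of 1.20 ± 0.32 (SE; edgeR adjusted p = 0.00320). It is a weak peak, near 1 CPM in vehicle. At the ZNF536 start, whose promoter is printed above, the peak chr19:30225147-30225609 had 5.71, 5.81, 5.09 and 5.90 CPM in vehicle and 5.90, 5.26, 6.42 and 7.04 CPM after sorbitol.

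Those 2 ranges overlapped, and the log2 fold change at the ZNF536 start was 0.054 ± 0.15 (SE; edgeR adjusted p = 0.832). Further into the gene, a peak at chr19:30227493-30228055 fell (log2 fold change -0.34 ± 0.13 SE, edgeR adjusted p = 0.0438) and one at chr19:30229542-30229801 rose (log2 fold change 0.53 ± 0.19 SE, edgeR adjusted p = 0.0272). All 8 calls in the window lay among 36 peaks with none.

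**Figure D5:**
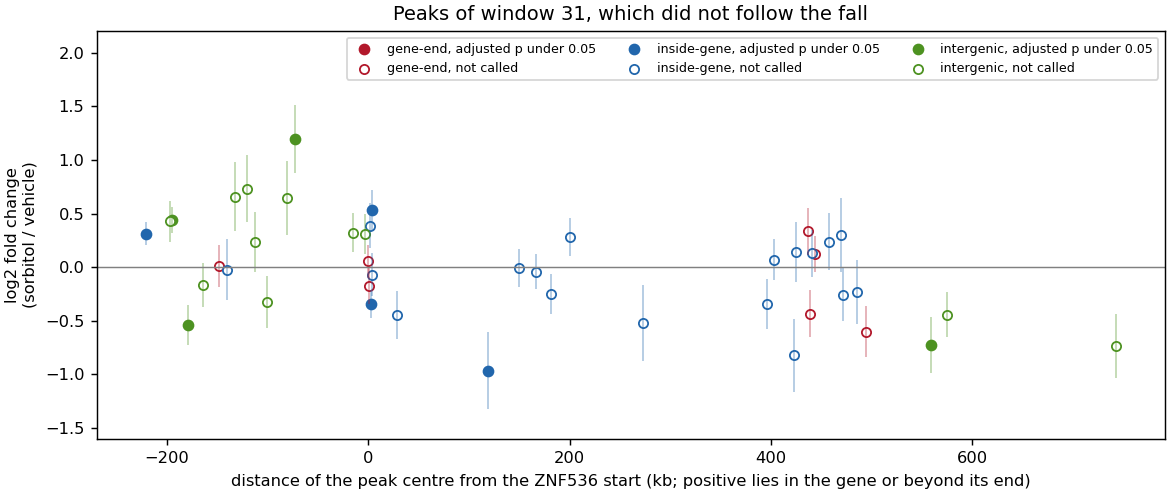
Log2 fold change (with SE) of the 44 tested peaks of window 31 by distance of the peak centre from the ZNF536 start, coloured by class, filled where the edgeR adjusted p was under 0.05. Peaks before the start of the gene lie mostly above 0, those inside it on both sides of 0 and the 4 beyond it below 0, and 4 peaks rose and 4 fell.

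Windows of 0.5 Mb showed 1 further stretch that did not follow, from 54.5 to 55.0 Mb, with a median of 0.36 over 12 peaks. It holds leukocyte receptor genes of the LILR and KIR families, immunoglobulin-like receptors of blood cells. Peaks inside KIR2DL3, KIR2DP1 and KIR2DL1 rose, with log2 fold changes of 0.66, 0.61 and 0.63 (edgeR adjusted p = 0.0449, 0.0469 and 0.0124). Peaks inside the IgA receptor gene FCAR and the natural killer receptor gene NCR1 fell, with log2 fold changes of -0.96 and -0.76 (edgeR adjusted p = 0.0149 and 0.00128). The groups overlapped in CPM at KIR2DP1, KIR2DL1 and FCAR. Of the 12 peaks 9 were below 3 CPM, and KIR and LILR genes are near-identical copies between which reads can be misplaced, so these values are uncertain. The neighbouring stretches had medians of -0.39 and -0.38.

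Zinc finger genes, taken by symbol, had the lowest gene-end peaks of all lists. Of 211 tested gene-end peaks at such genes 188 (89.1%) fell and 1 rose, with a median of -0.79. Of the other gene-end peaks of the chromosome 59.5% fell and 3.44% rose, with a median of -0.47. The riser was at ZFP36, which encodes an RNA-binding protein and no KRAB repressor. Zinc finger genes on other chromosomes had a median of -0.30 over 407 peaks, of which 217 (53.3%) fell. Other gene-end peaks there had a median of -0.15, with 30.6% lower. On chromosome 19 the zinc finger peaks had a median strength of 11.9 CPM and the other gene-end peaks 9.33 CPM. In the strongest bin of all its gene-end peaks (median 18.4 CPM) 85.2% fell, with a median of -0.58. The sets were not compared at like strength.

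Values differed both by gene kind and by window. Within the 12 windows rich in zinc finger genes, the 142 zinc finger peaks had a median of -0.85, the 112 other gene-end peaks -0.52 and the 186 peaks away from gene ends -0.54. In the remaining windows the same sets had -0.68, -0.46 and -0.39. Zinc finger genes are near-identical in parts, which can misplace reads.

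The ZNF724 peak (chr19:23249926-23250701) covers its start. It had 32.8, 28.8, 32.2 and 27.7 CPM in the vehicle libraries and 11.54, 12.3, 10.9 and 11.1 CPM in the sorbitol libraries. With means of 30.4 ± 2.52 and 11.45 ± 0.602 (SD, n = 4) the groups lay far apart, and the log2 fold change was -1.49 ± 0.10 (SE; edgeR adjusted p = 3.19e-17). A stronger peak at LINC00663 and ZNF56P (chr19:19776072-19776944), a long noncoding RNA and a zinc finger pseudogene, went from 72.8 ± 4.79 to 39.0 ± 0.518 CPM, with a log2 fold change of -0.98 ± 0.08 (SE; edgeR adjusted p = 6.29e-14).

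Peaks inside zinc finger genes fell as well. One inside ZNF875 (chr19:37317513-37318151) went from 20.1 ± 1.62 to 9.34 ± 0.983 CPM and one inside ZNF790 (chr19:36837874-36838896) from 16.9 ± 0.837 to 8.004 ± 0.398 CPM (SD, n = 4). Their log2 fold changes were -1.18 and -1.16. Between genes, a peak 7.32 kb from the pseudogene ZNF833P (chr19:11693890-11695470) had a log2 fold change of -0.79 ± 0.09 (SE; edgeR adjusted p = 5.68e-09).

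The lists below are set beside all gene-end peaks of the chromosome, of which 64.0% fell and 2.99% rose, with a median of -0.52. In the strongest bin of these peaks, with a median strength of 18.4 CPM, 85.2% fell and 1.59% rose, with a median of -0.58. The ribosomal and transcription lists had median strengths of 18.0 and 14.6 CPM, and their shares of 88.9% and 80.9% lower lie near that of the strongest bin. The lists were not matched for strength. Of 13 ribosomal protein genes on the chromosome 12 had a gene-end peak, and 16 of their 18 peaks (88.9%) fell, with a median of -0.59. None was higher by edgeR, also at an unadjusted p under 0.05, or by DESeq2. The strongest, at RPL28 of the large subunit and TMEM238 (chr19:55384921-55386092), had 48.7, 51.4, 46.4 and 41.3 CPM in vehicle and 32.2, 29.1, 25.7 and 27.3 CPM after sorbitol. All sorbitol libraries lay below all vehicle libraries, with a log2 fold change of -0.80 ± 0.09 (SE; edgeR adjusted p = 7.09e-10).

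The ribosomal peak with the smallest p-value lay at the end of RPS19 of the small subunit, away from any listed start (chr19:41872890-41873569), and went from 12.2 ± 1.32 to 4.78 ± 0.406 CPM. Its log2 fold change was -1.43 ± 0.14 (SE; edgeR adjusted p = 1.22e-11).

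Of 37 genes of transcription, splicing and chromatin 35 had a gene-end peak, and 38 of 47 peaks (80.9%) fell, with a median of -0.59, where 76.8% of all peaks shared by 2 or more protein-coding genes fell. None was higher by edgeR, at an unadjusted p under 0.05 too, or by DESeq2. The start peak shared by U2AF2, which binds the 3′ splice site of introns, and CCDC106 (chr19:55653553-55655278) had 62.6, 62.1, 46.4 and 43.4 CPM in vehicle and 29.6, 30.3, 25.5 and 29.3 CPM after sorbitol. Vehicle replicates 1 and 2 were higher than 3 and 4, yet all lay above the sorbitol libraries, and the log2 fold change was -0.99 ± 0.10 (SE; edgeR adjusted p = 3.26e-11). The strongest of the list, at POLR2I, a subunit of RNA polymerase II, TBCB and OVOL3 (chr19:36114646-36116019), went from 60.6 ± 5.63 to 40.2 ± 2.06 CPM, with a log2 fold change of -0.67 ± 0.08 (SE; edgeR adjusted p = 1.28e-08).

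Peaks at genes outside these lists fell as well. The gene-end peak second by p-value lay where the translation initiation gene EIF3G and the purine receptor gene P2RY11 end (chr19:10114022-10115141) and went from 22.3 ± 0.954 to 9.30 ± 1.09 CPM, a log2 fold change of -1.35 ± 0.11 (SE; edgeR adjusted p = 3.16e-14). Inside MARK4, which encodes a microtubule affinity kinase, a peak (chr19:45300439-45301110) had 31.9, 37.9, 31.2 and 29.3 CPM in vehicle and 16.4, 14.9, 15.8 and 13.7 CPM after sorbitol. This was the inside-gene peak with the smallest p-value, with a log2 fold change of -1.19 ± 0.10 (SE; edgeR adjusted p = 8.07e-14). An intergenic peak 1.03 kb from SLC17A7, a vesicular glutamate transporter gene (chr19:49442560-49444052), went from 49.2 ± 5.88 to 31.2 ± 0.977 CPM.

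Immediate early and stress genes had a share of falling peaks near that of all gene ends and below that of strong ones. The median strength of their peaks was 16.4 CPM, and in the strongest bin of gene-end peaks (18.4 CPM) 85.2% fell, with a median of -0.58. Of 22 such genes 20 had a gene-end peak, and 23 of 34 peaks (67.6%) fell while 3 rose, with a median of -0.36. The risers lay at GADD45B, a growth arrest gene (15.5 ± 2.46 to 22.9 ± 4.04 CPM), at JUND, a subunit of the factor AP-1 (30.9 ± 3.90 to 44.6 ± 3.09 CPM), and at ZFP36, whose product destabilises messenger RNAs (10.3 ± 0.923 to 16.3 ± 1.85 CPM, SD, n = 4). Their log2 fold changes were 0.49, 0.45 and 0.58, with edgeR adjusted p-values of 0.000615, 0.000114 and 8.33e-05.

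The strongest peak of the same list, at the start of NFKBIB, an inhibitor of NF-kappaB, and of the deacetylase gene SIRT2 (chr19:38899231-38900346), went the other way. It had 60.8, 59.2, 58.1 and 51.4 CPM in vehicle and 42.0, 40.1, 42.3 and 42.7 CPM after sorbitol, a log2 fold change of -0.54 ± 0.08 (SE; edgeR adjusted p = 9.04e-07). With contig factors it was -0.60 and no longer called (adjusted p 0.0692), as with chromosome 19 factors (-0.092, adjusted p 0.391). The same peak also counts under the transcription list, which holds SIRT2.

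Of 31 genes of ion and osmolyte transport 23 had a gene-end peak, and 15 of 33 peaks (45.5%) fell and 1 rose, with a median of -0.39, against 64.0% falling over all gene ends. The strongest peak, at the fatty acid transporter gene SLC27A1 (chr19:17469310-17470777), fell from 53.3 ± 3.43 to 37.1 ± 6.76 CPM, a log2 fold change of -0.61 ± 0.09 (SE; edgeR adjusted p = 9.02e-07). The peak shared by PNPLA6 and the lysosomal channel gene MCOLN1 (chr19:7534572-7535824) had a log2 fold change of -0.85 ± 0.10 (SE; edgeR adjusted p = 3.56e-09).

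Gene families of other tissues had few peaks, and few of those were called. These peaks were weak, with a median of 3.05 CPM in the first list below, against 10.1 CPM over all gene-end peaks of the chromosome. Weak gene-end peaks were called less often, with 28.9% lower in the second bin of strength and 36% in the third. Of 49 kallikrein, CYP2, CYP4F, PSG and CEACAM genes 19 had a gene-end peak, and 3 of 25 peaks (12.0%) fell and 2 rose, with a median of -0.11. The peak at the pregnancy glycoprotein gene PSG4 (chr19:43191197-43193127) had 73.2, 63.6, 66.1 and 62.4 CPM in vehicle and 88.1, 80.6, 82.3 and 78.4 CPM after sorbitol, without overlap, and a log2 fold change of 0.23 ± 0.08 (SE; edgeR adjusted p = 0.0198). PSG genes are near-identical copies, so the peak cannot be placed with certainty, and the call was lost when vehicle replicate 2, 3 or 4 or sorbitol replicate 1 was left out (adjusted p 0.0516 to 0.0657), with contig factors (log2 fold change 0.17, adjusted p 0.699) and at a threshold of 0.01. CYP2A6, of drug metabolism, had a weak peak that rose from 0.670 ± 0.216 to 1.47 ± 0.272 CPM (log2 fold change 1.06 ± 0.34 SE, edgeR adjusted p = 0.0155), a call lost without vehicle replicate 3 or sorbitol replicate 3, with loess (adjusted p 0.0508), with contig factors (0.0510) and at a threshold of 0.01.

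Of 44 leukocyte receptor and Siglec genes only 6 had a gene-end peak, with 7 peaks, 1 of them lower, at the pseudogene SIGLEC25P (log2 fold change -1.53 ± 0.30 SE, edgeR adjusted p = 9.62e-05). The median log2 fold change of the 7 peaks was 0.27, at a median strength of 2.27 CPM. The strongest, at KIR2DS4 (chr19:54847326-54848314), was not called, with 5.45, 4.25, 4.59 and 7.93 CPM in vehicle and 7.55, 6.37, 9.97 and 4.39 CPM after sorbitol. These ranges overlapped, but without vehicle replicate 4 the peak was called higher (log2 fold change 0.47, edgeR adjusted p = 0.0373), as it was without both replicates 4 (0.63, 0.00287) and with chromosome 19 factors (0.71, 0.00133). Of 20 olfactory receptor genes 2 had gene-end peaks, 3 in all. The strongest, at OR1I1, had a log2 fold change of -0.013 ± 0.17 (SE; edgeR adjusted p = 0.968), and one at OR7E25P and OR7E24 fell (log2 fold change -0.97 ± 0.25 SE, edgeR adjusted p = 0.00214), although its groups overlapped.

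Rising peaks lay among falling ones. Windows 2, 19 and 55 each had 8, the most of any window, and each of the 3 had a negative median. Window 50 (49 to 50 Mb) held 4 of the 9 risers with the smallest p-values by class, while 64 of its 106 peaks fell. The FCGRT start peak there (chr19:49512484-49513820) had 10.2, 9.94, 9.48 and 10.2 CPM in vehicle and 16.3, 22.8, 20.2 and 18.1 CPM after sorbitol, without overlap, and a log2 fold change of 0.88 ± 0.11 (SE; edgeR adjusted p = 2.47e-08).

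Nearby in window 50, a peak at RCN3, a calcium-binding protein gene of the endoplasmic reticulum (chr19:49543222-49543542), went from 0.983 ± 0.381 to 3.49 ± 0.826 CPM, with a log2 fold change of 1.73 ± 0.27 (SE; edgeR adjusted p = 2.02e-06). One inside NOSIP, a nitric oxide synthase interacting protein gene (chr19:49557702-49557973), went from 0.914 ± 0.385 to 3.12 ± 0.273 CPM, with a log2 fold change of 1.69 ± 0.28 (SE; edgeR adjusted p = 5.14e-06). An intergenic peak 1.03 kb from the neuropeptide gene PTH2 (chr19:49421008-49421390) went from 3.41 ± 0.688 to 6.38 ± 0.719 CPM. The RCN3 and NOSIP peaks were near 1 CPM in vehicle, so their folds rest on few counts.

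Elsewhere, a peak at PLK5 (chr19:1523660-1524527), a polo-like kinase family gene, went from 4.41 ± 0.760 to 8.71 ± 1.30 CPM, a log2 fold change of 0.91 ± 0.15 (SE; edgeR adjusted p = 1.00e-05). Peaks inside NPHS1, the gene of the kidney slit diaphragm protein nephrin (chr19:35845361-35846164), and TSHZ3-AS1 (chr19:31356875-31357402) had log2 fold changes of 0.66 and 0.82. The NPHS1 libraries were 7.88, 7.65, 7.06 and 7.39 CPM in vehicle and 12.7, 13.8, 11.3 and 12.3 CPM after sorbitol, without overlap, and the call was lost with contig factors (adjusted p 0.0802). Intergenic risers lay 2.03 kb from LOC124904652, next to the JUND peak, and 1.89 kb from the sphingosine phosphate receptor gene S1PR5, with log2 fold changes of 1.12 and 1.02.

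Promoter sequences were compared between falling and other peaks, since nothing of the sequence had been used to choose the chromosome. Of 2641 chromosome 19 genes 1510 had a RefSeq promoter and 930 of these had a peak within 1 kb. The ETS core CCGGAAG, read on both strands, was in 28.7% of the 690 promoters whose peak fell, in 8.37% of the 215 whose peak was not called and in 12.0% of the 25 whose peak rose. It was in 23.5% of the 930 promoters with a peak, in 18.1% of the 1510 promoters of the chromosome and in 10.7% of all 27305 promoters of the genome. The last 2 shares count promoters with or without a peak, and promoters were not matched for peak strength.

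Of the 234 promoters with the lowest log2 fold changes 119 belong to zinc finger genes and 45.7% held the ETS core, against 8.15% of the 233 with the highest. With zinc finger genes left out, the shares were 31.6% of the 187 lowest and 7.53% of the 186 highest. ZNF724 and U2AF2, printed above, hold the core, and PNPLA6, RPL28, ZNF536 and FCGRT do not. A match to 7 letters is a description and not a bound site.

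Other motifs differed less. CCAAT was in 43.2% of promoters with a falling peak and in 28.8% of those not called, AAGATGG (YY1) in 10.6% and 4.65%, and GCATGCG (NRF1) in 9.42% and 4.65%. GGGCGG, the GC box, was in 73.8% and 79.1%, TATAAA in 3.62% and 10.2%, and TGANTCA (AP-1) in 4.20% and 6.98%. Over the 930 promoters with a peak they were in 39.4%, 8.92%, 8.06%, 75.3%, 5.38% and 4.84%. In all promoters of the genome, with or without a peak, they were in 35.7%, 6.06%, 4.13%, 44.6%, 12.0% and 7.76%. The median GC content was 64.3% with a falling peak and 67.7% with an uncalled one, and over the 930 promoters GC content had a rank correlation of 0.29 with the log2 fold change, a description over genes that share libraries and neighbourhoods.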

How the data were processed

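The authors deposited 1 table of raw counts per peak for 8 ATAC-seq libraries, and every value was a whole number. Per the submitters' processing notes the tools were Trim Galore 0.6.10, FastQC 0.12.1, MultiQC 1.28, BWA 0.7.17, SAMtools 1.22, Picard, MACS2 2.2.9.1, bedtools, deepTools 3.5.4 and DESeq2, on hg38, with no roles given. Reads were paired-end 75 bp, per the labels' protocols. Whether reads or fragments were counted, and how peaks were merged, is not given in the sources used here. Coordinates are GRCh38, counted from 1. Library columns were matched to samples by group and replicate number.

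Low counts were removed by filterByExpr (at least 10 in a group's libraries, at least 15 in total). The rest were scaled by TMM and tested by the edgeR 4.0.16 quasi-likelihood test in R 4.3.3 with a single term, the treatment. Calls were made at a Benjamini-Hochberg adjusted p under 0.05, over the whole table. Printed CPM are counts scaled to the library's total in peaks. Intervals cover counting and library spread only, since PCR copies without molecular identifiers are not independent molecules.

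Genes came from the RefSeq table of GRCh38.p14, less 583 entries of alternate loci (58 on chromosome 19) and 135 of unlocalized contigs. Motifs were searched on both strands of promoters. On simulated counts for 129421 peaks, 111 of 200 peaks changed 2-fold were recovered (55.5%), with 7 false calls. The simulation used a single value for the spread between libraries, as many rises as falls and no broad shift. In the data 29.1% of peaks were called, so these rates need not hold for them.

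Named peaks were, per class and direction, the 3 with the smallest p-values among called peaks whose groups did not overlap, per gene list the strongest and the smallest p, and the same in each window that did not follow. The 5 lowest and 5 highest windows were named. Members, lists and rules were chosen with earlier results of these data known. Alternatives were other scalings (DESeq2 size factors, library totals, loess, and TMM on gene-end, chromosome 19 or contig peaks), the DESeq2 1.42.0 Wald test, other filters, a threshold of 0.01, a replicate block, summed libraries, other windows, and leaving out each library. Leaving out both replicates 4 was chosen after seeing the data. Results at 2 of the peaks that these rules or lists cover are not reported here.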

Additional observations from a re-analysis of the deposited data

Results flagged for a closer look

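In 94 groups of 4 libraries, those of the named peaks and of summed measures, the most extreme library was compared with the rest, and 4 groups had a gap to the nearest library that took up more of the whole range than Dixon's critical value for 4 values allows, where chance gives about 4.7. At the ZNF790 peak sorbitol replicate 2 had 8.60 CPM and the other sorbitol libraries 7.80 to 7.81, all far below the vehicle libraries (15.8 to 17.9). At the PLK5 peak vehicle replicate 3 had 3.28 CPM and the others 4.66 to 4.89. At the POLR2I, TBCB and OVOL3 peak vehicle replicate 4 had 52.2 CPM and the others 62.7 to 64.7, still above the sorbitol libraries (37.4 to 42.3). At the PNPLA6 and MCOLN1 peak sorbitol replicate 1 had 18.0 CPM and the others 13.5 to 13.9, below the vehicle libraries (23.04 to 26.8). Each of these 4 values came from a different library.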

How the results depend on the processing

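Scaling moved the values most. TMM factors from chromosome 19 itself set its own median near 0 by construction: 478 peaks lower and 544 higher (1022 called), median -0.0020, gene-end -0.073, inside-gene 0.033, intergenic 0.077, 25 windows at or above 0 and 16 window sums lower. Under it the median of all peaks was 0.46, so the gap of chromosome 19 to all peaks stayed at -0.46. TMM factors from gene-end peaks gave medians of -0.27, -0.34, -0.24 and -0.19 (all, gene-end, inside-gene, intergenic) and 208 higher, with the median of all peaks at 0.19. Library totals gave -0.37, -0.44, -0.33 and -0.29, and loess -0.43, -0.44, -0.42 and -0.42. TMM factors from contig peaks gave 909 called (874 lower, 35 higher), a median of -0.50 and 7 window sums lower. A mean of at least 50 counts left 70 higher, and a threshold of 0.01 left 55.

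The count of windows at or above 0 took only windows with at least 10 tested peaks. It was 0 with DESeq2 size factors, loess, contig factors, the DESeq2 Wald test and summed libraries. It was also 0 with 2 Mb or shifted windows and without both replicates 4, and 2 with 0.5 Mb windows. Leaving out 1 library gave 1509 to 1744 called peaks, 1426 to 1629 lower, 81 to 115 higher, a median of -0.47 to -0.42 and 0 or 1 such windows, with 0 without sorbitol replicate 3 or 4. Of 33 named peaks 24 kept call and direction under all 21 alternatives. OR1I1, at -0.013, turned to 0.068 (library totals), 0.0020 (loess), 0.16 (gene-end factors), 0.43 (chromosome 19 factors), 0.065 (mean of 50), 0.0011 (summed) and, without vehicle 1, vehicle 4, sorbitol 1 or sorbitol 3, to 0.095, 0.016, 0.040 and 0.10. The cause of these moves was not tested. Contig factors ended the calls of NPHS1, SIRT2 and NFKBIB, PSG4, CYP2A6 and URI1, and chromosome 19 factors those of SIRT2 and NFKBIB, SLC27A1, and OR7E25P and OR7E24.

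With the replicate number as a block 1656 peaks were called (1560 lower, 96 higher). Deviations from the group mean, taken over peaks, had correlations of -8.04e-05, 0.00671, -0.0308 and -0.133 between same-numbered libraries. Counting noise enters these values, so they cannot tell whether same-numbered libraries share a culture or batch.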
